A study of Mus musculus with 4 samples.

Results

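The 10 genes described here, Jchain, Mzb1, Xbp1, Derl3, Txndc5, Sdc1, Prdm1, Tnfrsf17, Creld2 and Eaf2, are identity genes of plasma cells and were chosen by name from the 32287 genes counted in popliteal lymph nodes (PLNs). Plasma cells are the antibody-secreting end stage of B cell differentiation. When a B cell becomes a plasma cell it switches off much of its B cell program, enlarges its endoplasmic reticulum (ER) and turns immunoglobulin into its main product. In lymph nodes such cells are known to gather in the medulla, along the sinuses through which lymph leaves the node.

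PLNs drain the hind paw and knee, and were sectioned onto 4 Visium capture areas, arrays on which a grid of barcoded spots captures the RNA of the overlying tissue and each captured molecule is counted through its unique molecular identifier (UMI). The WT area held 10 PLNs of 5 wild-type mice aged 5.5 months. The Early area held 6 PLNs of 3 TNF-Tg mice aged 5.5 months with early arthritis, and the areas Advanced 1 and Advanced 2 each held 6 PLNs of 3 TNF-Tg mice aged 8.5 to 9 months with advanced arthritis. In TNF-Tg mice an inserted TNF transgene leads to erosive arthritis. All mice were male C57BL/6, every hindpaw had received Evan's blue dye to find the node, and every area was a single section of several nodes of pooled mice. Advanced mice were thus also older than the WT and the Early mice. Age and arthritis cannot be told apart in a comparison of Advanced with either group. WT mice also lack the transgene, which cannot be told apart from arthritis in a comparison with WT. A spot can hold several cells of different types, and in sums over spots fewer plasma cells and less RNA per plasma cell cannot be told apart.

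The areas held 833 to 2015 spots under tissue and 1808678 to 5180493 UMIs. Depth changed with position on every area: spots at a tissue edge (rim, fewer than 6 neighbouring spots under tissue) had medians of 2113 to 5541 UMIs over the areas, and interior spots medians of 140.5 to 250.5. Only 39.9% to 47.5% of spots reached 500 UMIs, and these spots held 94.7% to 98.1% of the UMIs of their area. Analyses of single spots used only them. Any pair of areas shared 464 to 1050 spot barcodes, which mark array positions common to all areas, and not shared cells. Of the 10 genes, Jchain gave 13957 UMIs over the 4 areas, Mzb1 3838, Xbp1 2585, Txndc5 2574, Creld2 1235, Sdc1 629, Derl3 370, Eaf2 330, Prdm1 98 and Tnfrsf17 59. The last pair was therefore at the limit of what these libraries can show.

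The genes fall into 4 roles. Prdm1 (ENSMUSG00000038151, chromosome 10 from 44437177 to 44528501 of GRCm38) encodes Blimp-1, the repressor that ends the B cell program, and Xbp1 (ENSMUSG00000020484, chromosome 11 from 5520659 to 5525893) the transcription factor that expands the ER. Eaf2 (ENSMUSG00000022838, chromosome 16 from 36792884 to 36875003) binds the transcription elongation factors of the ELL family. Jchain (ENSMUSG00000067149, chromosome 5 from 88519809 to 88527891) encodes the joining chain that links IgM and IgA into polymers, and Mzb1 an ER protein that helps to assemble and secrete immunoglobulin. Derl3 (ENSMUSG00000009092, chromosome 10 from 75893413 to 75895941) takes part in removing misfolded proteins from the ER, Txndc5 (ENSMUSG00000038991, chromosome 13 from 38500079 to 38528824) is a disulfide isomerase of the ER, and Creld2 (ENSMUSG00000023272, chromosome 15 from 88819646 to 88826683) is an ER protein induced by ER stress. Sdc1 (ENSMUSG00000020592, chromosome 12 from 8771323 to 8793715) encodes CD138, the surface proteoglycan by which plasma cells are usually sorted, and Tnfrsf17 (ENSMUSG00000022496, chromosome 16 from 11313812 to 11320074) encodes BCMA, a receptor for the survival factors APRIL and BAFF.

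Promoter windows of 300 bases, from 250 bases before to 50 bases after a start site, were found in RefSeq (GRCm38.p6) for 9 of the 10 genes. They were searched on both strands for the ER stress element (CCAAT, any 9 bases, CCACG), the recognition sequence of the ER stress pathway in which Xbp1 acts, and for the core of the unfolded protein response element (TGACGTG). The ER stress element was found in 2 of the 9 genes, Derl3 and Creld2, against 0.137% of all 27025 genes with a window, and the core in Txndc5, against 2.22%. These 3 windows are shown because they carry the matches, in capitals, with the strand of the gene as the printed strand. The ER stress elements lie on the opposite strand and begin 156 bases before the start site in Derl3 and 126 bases before it in Creld2. The core in Txndc5 begins 138 bases before a start site that lies within the gene as annotated.
Derl3 chr10:75893148-75893447, plus strand: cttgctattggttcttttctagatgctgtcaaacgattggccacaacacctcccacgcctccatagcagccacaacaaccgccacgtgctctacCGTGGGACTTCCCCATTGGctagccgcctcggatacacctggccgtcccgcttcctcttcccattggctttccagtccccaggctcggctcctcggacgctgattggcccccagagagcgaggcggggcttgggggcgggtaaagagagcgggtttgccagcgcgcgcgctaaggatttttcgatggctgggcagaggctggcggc
Creld2 chr15:88819396-88819695, plus strand: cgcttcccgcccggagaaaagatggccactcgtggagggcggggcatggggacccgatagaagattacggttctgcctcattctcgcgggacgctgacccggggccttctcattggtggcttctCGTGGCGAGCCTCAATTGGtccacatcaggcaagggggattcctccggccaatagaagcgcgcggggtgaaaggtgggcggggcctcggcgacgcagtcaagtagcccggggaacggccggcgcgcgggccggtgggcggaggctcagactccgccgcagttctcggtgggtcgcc
Txndc5 chr13:38527865-38528164, minus strand: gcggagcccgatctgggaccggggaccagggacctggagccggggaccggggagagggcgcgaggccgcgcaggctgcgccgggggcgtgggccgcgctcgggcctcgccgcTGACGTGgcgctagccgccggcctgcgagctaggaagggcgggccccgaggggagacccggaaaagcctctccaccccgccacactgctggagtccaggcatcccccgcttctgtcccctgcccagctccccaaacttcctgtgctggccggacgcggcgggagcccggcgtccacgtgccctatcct
Of 20 ER secretory genes listed for comparison (chaperones, ER-associated degradation, translocation), 16 had a window, and 4 of these, Hspa5, Hsp90b1, Pdia6 and Dnajc3, held an ER stress element. A match is only a run of letters in a window, and binding was not measured.

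The first question was whether the identity genes were found where antibody transcripts were. The spots of each area with at least 500 UMIs were divided into 5 equal groups (quintiles) by their share of IgG heavy chain UMIs (the sum of Ighg1, Ighg2b, Ighg2c and Ighg3, here total Ighg). Jchain was higher in each quintile than in the one below it, in 4 of 4 areas. It took between 1.06 and 3.68 of every 10000 UMIs in the lowest quintile of an area and between 25.7 and 34.2 in the highest, 9.30 to 25.1 times as much. Xbp1 took 1.03 to 1.21 of every 10000 UMIs in the lowest quintile and 2.57 to 5.43 in the highest, and Creld2 0.384 to 0.694 and 1.45 to 2.72. Txndc5 took 1.00 to 1.497 and 2.78 to 3.63. Prdm1 took 0.0183 to 0.174 and 0.107 to 0.146, and was highest in the top quintile on 1 of 4 areas. Such ranges were not computed for all genes. The summed UMIs of all 10 genes were 5.21 to 6.21 times higher in the highest quintile. Jchain gave 13957 of the 25675 UMIs in that sum, which therefore follows it closely.

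**Figure D1:**
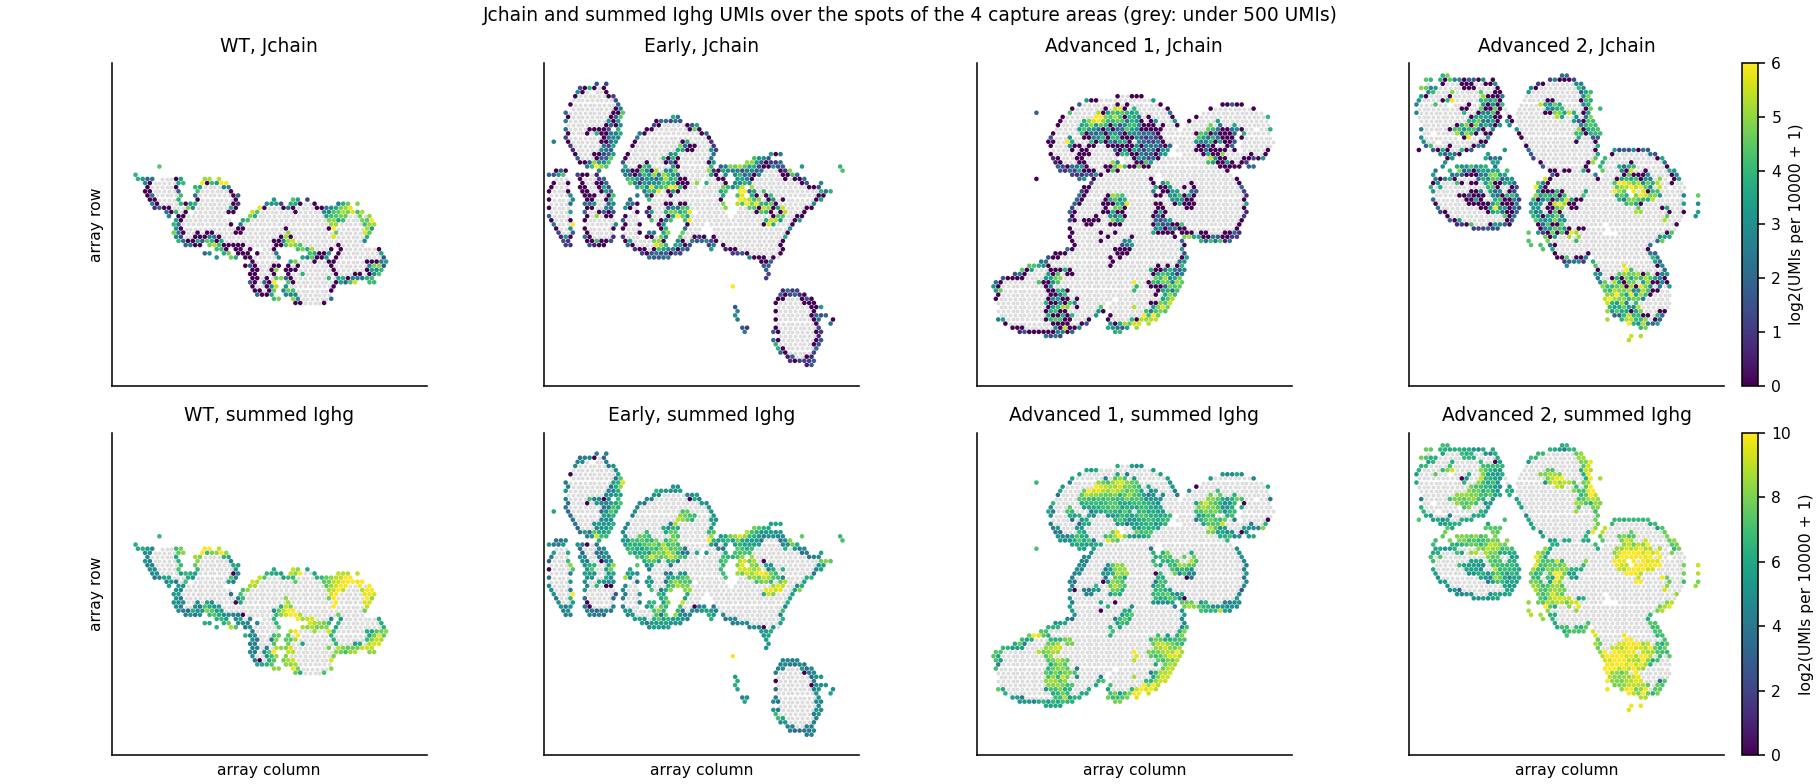
Each point is a spot of a capture area, placed by its array column and row, with Jchain above and total Ighg below, both as log2(UMIs per 10000 + 1) on the colour scale, and grey points hold fewer than 500 UMIs. Spots of sufficient depth lie along the tissue edges and in patches inside the tissue outline, and Jchain is bright in a part of the patches in which total Ighg is bright.

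**Figure D2:**
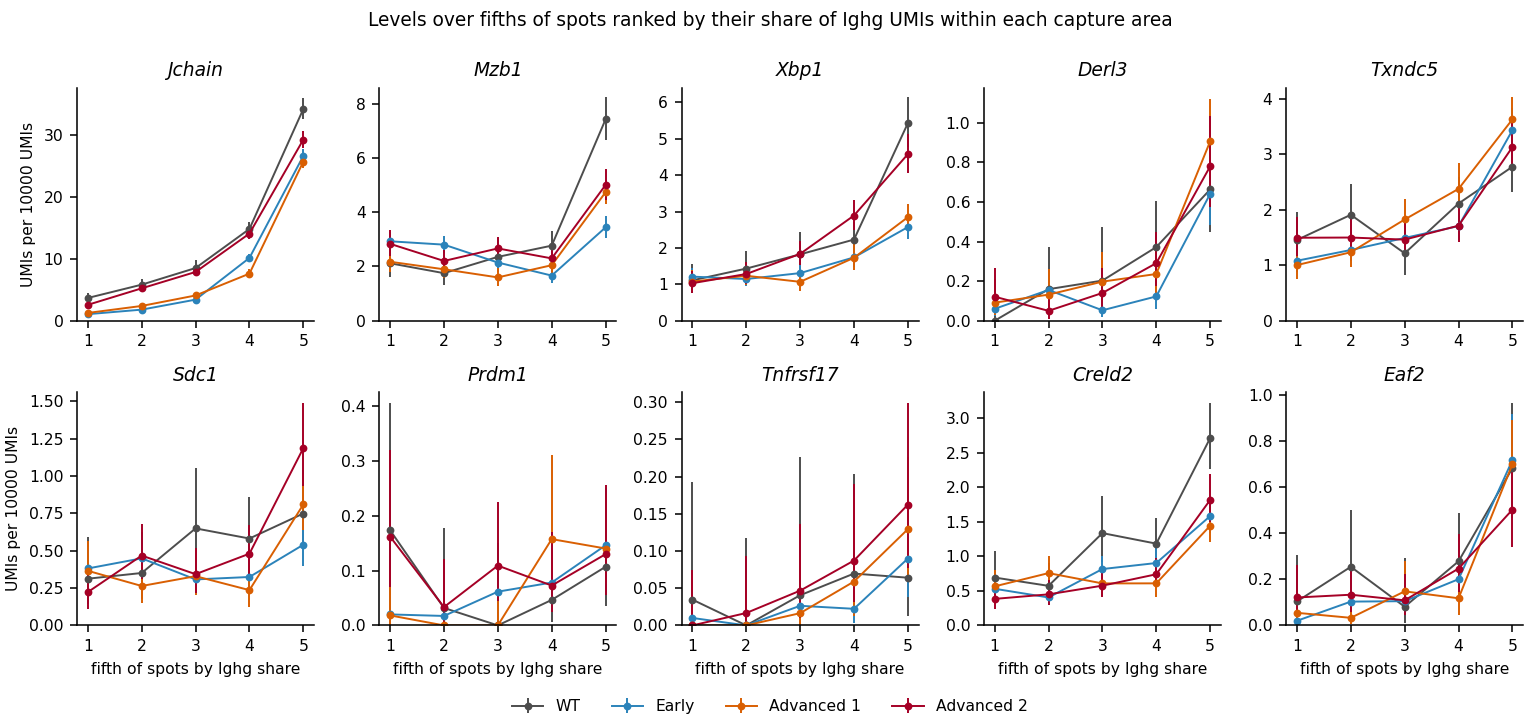
Levels of the 10 genes (UMIs per 10000 UMIs, vertical axis from 0) over quintiles of spots ranked by their share of Ighg UMIs within each area, from lowest to highest on the horizontal axis. Lines are the 4 areas and bars exact Poisson 95% intervals, which cover counting error only. Jchain is higher in each quintile than in the one below, while Mzb1 is higher in the top quintile than in the next lower quintile, and below it falls steadily in the Early area but not on the other areas.

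IgG and IgM heavy chain transcripts were themselves found together (Pearson r over spots between 0.315 in the WT area and 0.709 in Advanced 2), so spots were classed by both. Spots were classed as above the median of their area, or not, in their share of total Ighg (IgG-high) and in their share of Ighm (IgM-high). UMIs were summed over each of the 4 classes of each area. The classes did not fully separate these transcripts. In the Early area Ighm took 64.0 of every 10000 UMIs in spots high only in IgM and 155 in spots high in both. Total Ighg took 89.0 there in spots high only in IgG and 224 in spots high in both. In the WT area these values were 97.2 and 109 for Ighm and 496 and 592 for total Ighg. A difference at the same IgM class can therefore still carry Ighm, and the reverse. Jchain took 2.02 of every 10000 UMIs in the WT area in spots high in neither, 9.43 in spots high only in IgM, 14.8 in spots high only in IgG, and 27.1 in spots high in both. In the Early area the same classes gave 1.59, 2.76, 4.16 and 19.1. They gave 2.00, 3.85, 6.44 and 19.7 in Advanced 1 and 4.10, 8.56, 8.36 and 21.6 in Advanced 2. Spots high in both thus had the highest Jchain level on 4 of 4 areas, and Advanced 2 was the only area on which spots high only in IgG were not above those high only in IgM.

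Across the 16 sums, with the area as a block, 6 of the 8 genes with enough counts were higher in IgG-high spots at the same IgM class (edgeR's quasi-likelihood test, adjusted p under 0.05 over 9105 genes), and none lower. In the same comparison 10.7% of all genes tested passed, and 5.82% of all genes tested were higher. The log2 difference of Jchain was 1.93 (standard error 0.15, adjusted p = 1.35e-10), higher, in 8 of 8 pairs of classes. The 8 pairs come from 4 areas, and the classes of an area share its section and library. They are therefore not independent replicates. Eaf2 was higher by 1.54 (standard error 0.28, adjusted p = 0.000506), in 7 of 8 pairs, and Derl3 by 1.52 (standard error 0.26, adjusted p = 0.000185), also in 7 of 8. Creld2 and Xbp1 were higher in 8 of 8 pairs, by 1.07 (standard error 0.14, adjusted p = 4.87e-06) and 1.00 (standard error 0.14, adjusted p = 1.22e-05). Txndc5 was higher by 0.56 (standard error 0.12, adjusted p = 0.00253), in 7 of 8 pairs, and lost its call when rim spots alone were used (adjusted p = 0.0872). The median log2 difference of the 8 genes was 1.04, against -0.0065 over all genes tested.

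Mzb1 and Sdc1 did not pass. The log2 difference of Mzb1 was 0.42 (standard error 0.17, adjusted p = 0.11 in the edgeR fit) and was higher in 4 of 8 pairs. In spots high only in IgG it took 5.17 of every 10000 UMIs in the WT area but 1.80 in the Early area, 1.82 in Advanced 1 and 2.07 in Advanced 2, and in spots high in neither 1.61, 2.59, 1.92 and 2.48. In the WT area it was thus higher in the IgG-only class than in the class high in neither, and on the other areas lower. Mzb1 is also known from other B cells, from which it takes its name. Sdc1 differed by 0.52 (standard error 0.20, adjusted p = 0.0952), higher in 6 of 8 pairs. Prdm1 and Tnfrsf17 had too few counts for this fit. Tnfrsf17 took 0.0590 to 0.131 of every 10000 UMIs in spots high in both and 0 to 0.0158 in spots high in neither. These values rest on the 59 UMIs of the whole series.

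For IgM-high spots at the same IgG class, 2 of the same 8 genes passed, Jchain and Txndc5, both higher. Of all genes tested 0.286% passed, and 0.154% of all genes tested were higher. Jchain was higher by 1.39 (standard error 0.15, adjusted p = 5.20e-07 from edgeR), in 8 of 8 pairs, and Txndc5 by 0.68 (standard error 0.12, adjusted p = 0.00444), also in 8 of 8. Eaf2 (1.102, standard error 0.27, adjusted p = 0.0767) and Derl3 (0.85, standard error 0.25, adjusted p = 0.178) did not pass. The median over the 8 genes was 0.56, against 0.0034 over all genes. Whether a gene followed IgG more closely than IgM was not tested.

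Other gene groups differed between the same classes of spots. Of 20 ER secretory genes, 10 were higher in IgG-high spots and none lower (median log2 difference 0.45), among them the chaperones Hspa5 (0.59, standard error 0.11, adjusted p = 0.000559 from edgeR) and Hsp90b1 (0.58, standard error 0.11, adjusted p = 0.000577), both of which carry the ER stress element. Sec61b (0.0049, adjusted p = 0.983 from edgeR) and Sec11c (0.27, adjusted p = 0.103), next in UMIs on that list, did not pass. The part of the element in these differences was not tested. None of the 20 passed for IgM. Of 14 B cell genes that plasma cells switch off, 10 were lower in IgG-high spots and none higher (median -0.73), such as Cd22 by -0.95 (standard error 0.11, adjusted p = 1.08e-06) and the follicle marker Ms4a1 by -0.78 (standard error 0.11, adjusted p = 2.09e-05). Of 15 further genes of plasma cells, 12 had enough counts, and 3 were higher and 1 lower (median log2 difference 0.12). Cd38 (-0.0034, adjusted p = 0.99 from edgeR) and Pou2af1 (-0.30, adjusted p = 0.128), with the most UMIs of these genes, did not pass. Ly6c2 was higher by 1.03 (standard error 0.14, adjusted p = 8.70e-06), while Irf4, a transcription factor that plasma cells need, differed by -0.072 (adjusted p = 0.776) for IgG and was higher by 0.55 (standard error 0.12, adjusted p = 0.0243) for IgM. Of 7 niche and survival genes 4 were tested. Cxcl12, the chemokine that holds plasma cells in their niche, was higher in IgG-high spots by 0.84 (standard error 0.12, adjusted p = 2.66e-05) and in IgM-high spots by 0.61 (adjusted p = 0.0129), and Tnfrsf13c, the BAFF receptor of B cells, was lower in IgG-high spots (log2 difference -0.72, adjusted p = 0.000527). Of the 10 germinal centre genes 5 were tested and none passed in the edgeR fit for IgG.

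Markers of other cells moved with the IgG classes as well. Of the sinus markers 9 of 11 tested were higher in IgG-high spots, as were 9 of 10 capsule and fat markers, while 8 of 9 follicle markers were lower. The 12 sinus markers together took 26.0 to 44.5 of every 10000 UMIs in spots high in neither and 38.1 to 68.1 in spots high in both, and the 10 capsule and fat markers 11.3 to 24.0 and 20.1 to 24.8. In spots high only in IgM the sinus markers took 17.4 to 70.7, and in spots high only in IgG 36.4 to 93.3. The capsule and fat markers took 6.69 to 27.0 and 14.8 to 33.6 in these classes. Markers of plasmacytoid dendritic cells, which share some genes with plasma cells, took 11.7 to 13.9 in spots high in neither and 8.65 to 11.6 in spots high in both. Of the 4 of these 8 markers with enough counts 1 was higher and 1 lower in IgG-high spots: Siglech was higher by 0.76 (standard error 0.15, adjusted p = 0.00125 from edgeR), and Ly6d, with the most UMIs of the list, was lower (-0.52, standard error 0.10, adjusted p = 0.00109). The epithelial markers, of which Krt5 and Krt14 had 0 UMIs, took 0.283 to 0.528 and 0.291 to 0.496. Of the T cell markers 2 of 10 were higher. The part of these cells in the differences of the identity genes was not tested.

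Over single spots the genes followed antibody transcripts to very different degrees. The correlation of log2(UMIs per 10000 + 1) with total Ighg over the 356 to 815 spots of an area was 0.578 to 0.639 for Jchain and 0.216 to 0.398 for Xbp1. It was 0.228 to 0.324 for Txndc5, 0.177 to 0.307 for Derl3 and 0.168 to 0.302 for Creld2. With Ighm it was 0.429 to 0.570 for Jchain and 0.251 to 0.300 for Txndc5, the only genes at or above 0.25 on every area. Mzb1 had its highest value with total Ighg in the WT area (0.381) and its lowest in the Early area (0.102). Spots of an area share a library and their neighbours' tissue, and levels also followed depth, with a correlation of Jchain with log2 total UMIs of 0.204 to 0.435, so these values are descriptions. The values for Prdm1 and Tnfrsf17 (means of 0.0378 and 0.105 with total Ighg) come from genes absent from most spots, with too few UMIs for a correlation to be read.

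The genes also varied in how far they went together. Over spots, Jchain correlated most with Txndc5 (mean r over areas 0.314), Xbp1 (0.281) and Mzb1 (0.238). Among 2619 other genes with at least 1000 UMIs, immunoglobulin genes left out, those most like the sum of the 10 genes were Slpi, a secreted protease inhibitor (mean r over 4 areas 0.363), Cxcl12 (0.295), the ER chaperones Hsp90b1 (0.275) and Hspa5 (0.260), the chemokine Ccl8 (0.239), Selenop (0.234), the matrix gene Dcn (0.215), Il6st, the signalling receptor for interleukin 6 (0.214), the actin-severing gene Gsn (0.213) and the sinus macrophage marker Marco (0.213). The median over the 2619 genes was 0.0589 and the 95th percentile 0.144. Slpi had its highest value in the WT area (0.534), against 0.275 to 0.357 on the others.

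The next comparison asked whether the genes lay at the edge of the sections or inside. Jchain took 15.6 of every 10000 UMIs at the rim and 14.0 in the interior in the WT area, 7.32 and 9.13 in the Early area, 9.25 and 10.3 in Advanced 1, and 10.9 and 14.2 in Advanced 2. It was higher in the interior on 3 of 4 areas, and rim minus interior was -0.093 in log2 (standard error 0.11, adjusted p = 0.675 from edgeR with the area as a block). Creld2 took 1.32 at the rim and 1.90 in the interior in the WT area, 0.724 and 1.09 in the Early area, 0.859 and 0.909 in Advanced 1, and 0.620 and 1.12 in Advanced 2. It was lower at the rim on 4 of 4 areas (log2 difference -0.43, standard error 0.13, adjusted p = 0.049). Of the 9 genes tested it was the only gene to pass, in a comparison in which 7.76% of 10998 genes did and 3.59% of the 10998 were lower at the rim. The call was lost without the Early area (edgeR adjusted p = 0.197), without Advanced 2 (adjusted p = 0.345), without the block (adjusted p = 0.514) and in DESeq2 (adjusted p = 0.16).

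The other 8 genes tested did not pass. Their log2 differences lay between -0.26 for Prdm1 (standard error 0.34, adjusted p = 0.713) and 0.23 for Sdc1 (standard error 0.16, adjusted p = 0.451), and 7 of the 9 were negative, that is lower at the rim. Over the 9 genes the median was -0.14, against -0.0020 over all genes. Mzb1 went different ways between areas. It took 3.29 at the rim and 4.71 in the interior of the WT area and 2.86 and 3.11 in Advanced 2, but 2.64 and 2.36 in the Early area and 2.89 and 2.54 in Advanced 1. Farther from the edge the areas also went different ways. In the Early area Jchain took 6.10 of every 10000 UMIs in spots 1 step inside the rim, 8.0 at 2 steps and 16.3 at 3 steps or more, and in Advanced 1 it took 16.7, 5.72 and 8.63. These sums include spots under 500 UMIs. In the Early area Jchain was found in 83 of 369, 38 of 255 and 82 of 387 spots at these steps.

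In the same comparison 4 of 14 B cell genes were higher at the rim, among them Cd79b, part of the B cell receptor (0.55, standard error 0.11, adjusted p = 0.0032 from edgeR), as were 6 of 10 capsule and fat markers. Of 20 ER secretory genes only Sec61b passed (0.55, standard error 0.10, adjusted p = 0.00151). Irf4 was lower at the rim (-0.63, standard error 0.12, adjusted p = 0.00266), and 3 of the 14 further plasma cell genes tested were lower in all. Of the T cell markers 5 of 10 were lower. Rim spots had 2113 to 5541 UMIs at the median against 140.5 to 250.5 inside, and the part of depth in these differences was not tested. Only 138 of 580 interior spots reached 500 UMIs in the WT area, 299 of 1011 in Early, 574 of 1700 in Advanced 1 and 493 of 1380 in Advanced 2. Creld2 still differed by -0.46 (adjusted p = 0.0546) after spots under 500 UMIs had been left out.

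Whether the difference between rim and interior changed from Early to Advanced was tested as an interaction. None of the 9 genes passed (adjusted p = 0.999 for each, in the edgeR fit), and none had an unadjusted p under 0.05. DESeq2 called none either. Over all genes 0.0455% passed. The widest differences were -0.81 for Prdm1 (standard error 0.81) and 0.64 for Derl3 (standard error 0.45), and the standard errors of the 9 genes were 0.24 to 0.81. This fit has 1 residual degree of freedom, and Early is a single area. Its p-values equal those of a normal distribution, so the spread used was pooled over genes.

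**Figure D3:**
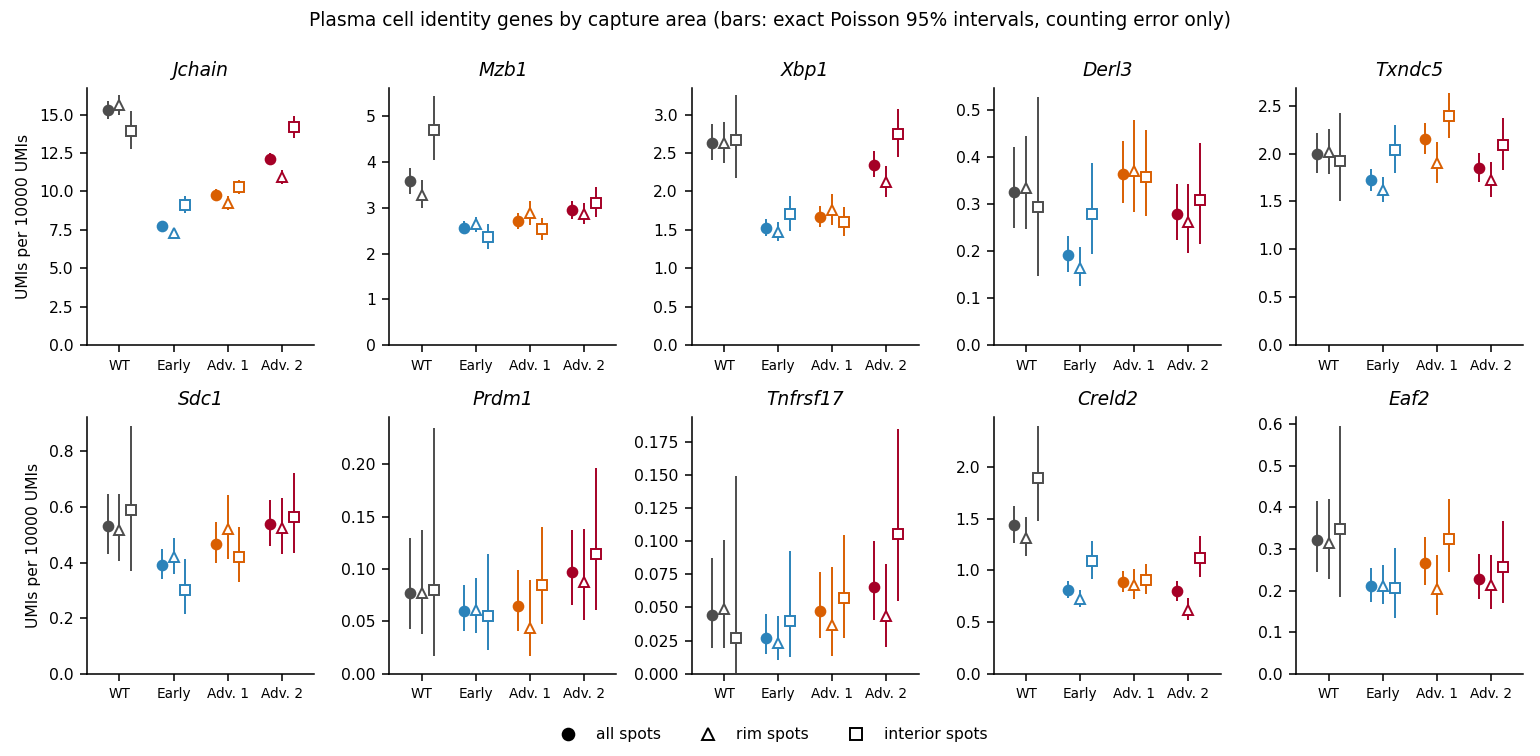
Levels of the 10 genes (UMIs per 10000 UMIs, each vertical axis from 0) on the 4 capture areas, as filled circles for all spots, open triangles for rim spots and open squares for interior spots, with exact Poisson 95% intervals that cover counting error only. Over all spots Jchain, Mzb1 and Xbp1 are highest in the WT area and lowest in the Early area, and Creld2 is lower at the rim than inside on every area.

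The WT, Early and Advanced nodes were then compared over whole areas. Jchain took 15.3 of every 10000 UMIs in the WT area (95% Poisson interval 14.7 to 15.9), 7.76 in the Early area (7.52 to 8.0), 9.79 in Advanced 1 (9.46 to 10.1) and 12.1 in Advanced 2 (11.7 to 12.5). The areas thus ranked WT, Advanced 2, Advanced 1 and Early, and no intervals overlap. These intervals cover counting error only, and the Advanced areas alone differed from each other by more than counting error (mean 10.9 ± 1.63, SD, n = 2). Mzb1 (3.58, 2.57, 2.71 and 2.95 on WT, Early, Advanced 1 and Advanced 2) and Xbp1 (2.64, 1.53, 1.67 and 2.35) ranked the areas in the same order. Early and WT are 1 area each, so that their difference has no replicate check. The Jchain level in the Early area was 0.508 times that in the WT area.

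Not every gene followed this order. Txndc5 took 2.00 of every 10000 UMIs in the WT area, 1.72 in the Early area, 2.15 in Advanced 1 and 1.85 in Advanced 2. Creld2 took 1.44, 0.813, 0.885 and 0.797 in the same order of areas, with WT apart from the 3 TNF-Tg areas. Sdc1 took 0.531, 0.392, 0.468 and 0.538. Derl3 (0.326, 0.191, 0.364 and 0.278) and Eaf2 (0.321, 0.210, 0.266 and 0.228) were lowest in the Early area as well. Prdm1 took 0.0774, 0.0598, 0.0651 and 0.0969, and Tnfrsf17 0.0442, 0.0270, 0.0474 and 0.0657, from 14 to 31 and from 8 to 21 UMIs per area. The Early area had the lowest level for 9 of the 10 genes, the exception being Creld2. How many of all genes were lowest there was not counted.

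From Early to Advanced, 0 of the 10 genes passed in edgeR's quasi-likelihood test over 13102 genes, in which 1.19% of all genes did. DESeq2 called none, nor did any other setting tried. Jchain was higher on both Advanced areas, at 0.42 log2 units above Early (standard error 0.15, adjusted p = 0.192), and Derl3 by 0.67 (standard error 0.28, adjusted p = 0.388), the only genes of the 10 with an unadjusted p under 0.05. Xbp1 differed by 0.32 (standard error 0.18, adjusted p = 0.705), Mzb1 by 0.060 (standard error 0.17, adjusted p = 0.989) and Creld2 by -0.029 (standard error 0.20, adjusted p = 0.992). The differences of 9 of the 10 genes were above 0, with a median of 0.30 against 0.014 over all genes. These tests have 1 residual degree of freedom, from the 2 Advanced areas. Their p-values equal those of a normal distribution, so the spread used was pooled over genes. It is not the spread of each gene between the Advanced areas.

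From WT to Advanced, 2 of the 10 genes passed, both lower, where 2.10% of all genes tested passed and 1.37% of all genes tested were lower. Jchain was lower by 0.59 (log2 difference -0.59, standard error 0.14, adjusted p = 0.00352 from edgeR) and Creld2 by 0.89 (log2 difference -0.89, standard error 0.20, adjusted p = 0.00119), each on both Advanced areas. Xbp1 (-0.50, standard error 0.18, adjusted p = 0.13) and Mzb1 (-0.45, standard error 0.17, adjusted p = 0.173) did not pass, and the median over the 10 genes was -0.32, against 0.013 over all genes. The calls depended on the tool: DESeq2 called neither gene (adjusted p = 1.00 for Jchain and 0.849 for Creld2), and neither passed without the filter on low counts. Without scaling factors, which moved the median of all genes to 0.13, Jchain did not pass (-0.48, adjusted p = 0.0882) and Creld2 did (-0.77, adjusted p = 0.00887). This comparison shares the Advanced areas and the spread pooled over genes with the one before it. The difference of Jchain from WT was larger in rim spots (-0.72, adjusted p = 0.0215) than in interior spots (-0.27, adjusted p = 0.917), without a test of that contrast, while Creld2 differed by -0.94 and -0.99 (adjusted p = 0.0588 and 0.115).

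**Figure D4:**
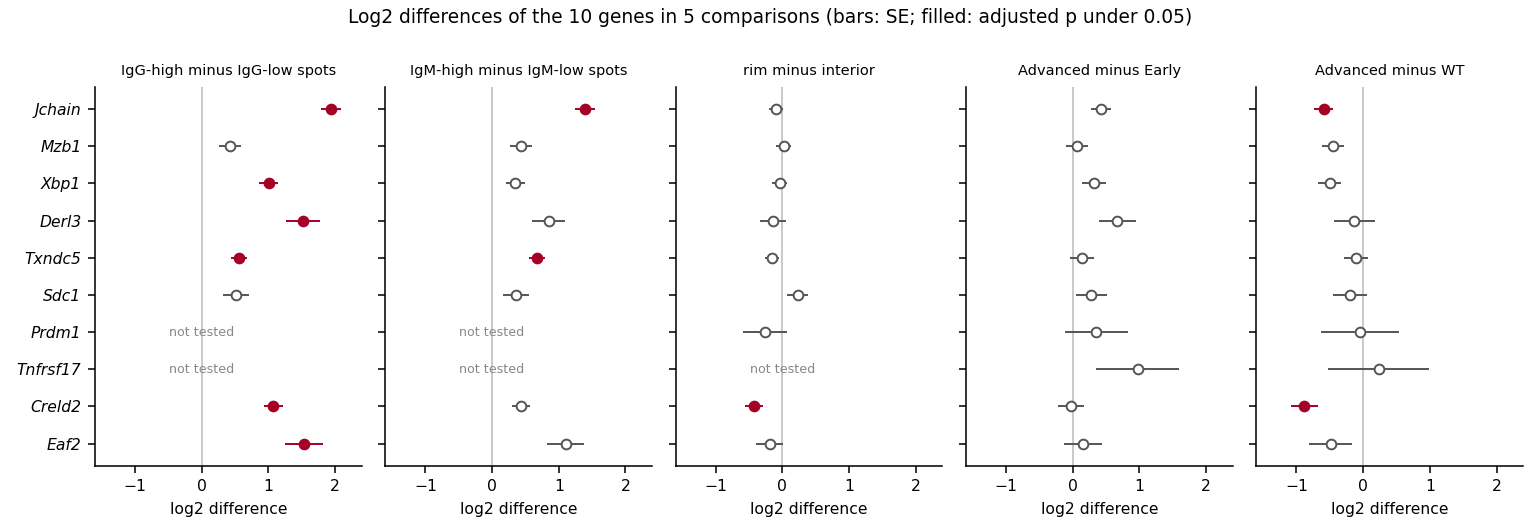
Log2 differences (horizontal axis) of the 10 genes in 5 comparisons, one panel each, with standard errors as bars. Filled points passed an adjusted p of 0.05, and genes with too few counts are marked as not tested. The filled points are the 6 genes higher in IgG-high spots, the 2 higher in IgM-high spots, Creld2 lower at the rim, and Jchain and Creld2 lower in Advanced than in WT nodes.

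ER chaperones were lower between the same groups. Of the 20 ER secretory genes 4 were lower in Advanced than in WT nodes and none higher (median -0.43). Hsp90b1 took 8.11 of every 10000 UMIs in the WT area, 4.83 in the Early area, 5.93 in Advanced 1 and 4.28 in Advanced 2 (Advanced minus WT -0.78, standard error 0.15, adjusted p = 5.02e-05 from edgeR), and Hspa5 took 6.77, 5.02, 5.03 and 4.21 (-0.66, standard error 0.15, adjusted p = 0.00173). Sec61b (-0.10, adjusted p = 0.913 from edgeR) and Sec11c (-0.21, adjusted p = 0.738) did not pass between Advanced and WT. None of the 20 passed between Advanced and Early. Of the further plasma cell genes 4 of 14 were higher in Advanced than in Early nodes, such as Ly6c2 (0.76, standard error 0.20, adjusted p = 0.0148 from edgeR). Cd38 (-0.42, adjusted p = 0.383) and Pou2af1 (-0.22, adjusted p = 0.875), with the most UMIs of that list, did not pass, and neither did Irf4 (0.42, adjusted p = 0.463). Cxcl12 was higher in Advanced than in Early nodes by 0.77 (standard error 0.15, adjusted p = 0.000124). Between Advanced and WT neither Ly6c2 (-0.30, adjusted p = 0.639) nor Cxcl12 (-0.11, adjusted p = 0.894) passed.

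Markers of other compartments differed between the groups as well. Of 12 sinus markers 7 were lower in Advanced than in WT nodes, and together they took 61.3 of every 10000 UMIs in the WT area, 44.1 in the Early area, 31.8 in Advanced 1 and 42.7 in Advanced 2. Of 9 follicle markers 3 were higher in Advanced than in WT nodes and 2 lower than in Early nodes, with sums of 15.1, 45.0, 29.9 and 23.6. The 14 B cell genes took 21.3, 37.4, 33.9 and 28.6, so that the order of the areas was the reverse of that of Jchain. The part of these compartments in the levels of the identity genes was not tested.

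Shares of UMIs and UMI counts per PLN gave different orders. The WT area had 276 Jchain UMIs per PLN, the Early area 670, Advanced 1 551 and Advanced 2 645, and the WT area had 833 spots for its 10 PLNs. Such counts also depend on the total UMIs of an area and on the tissue in its section. The WT area gave 1808678 UMIs in all from 10 PLNs, and the Early area 5180493 from 6. They are therefore not amounts of RNA per node. Set against antibody transcripts, Jchain gave 3.68 UMIs per 100 UMIs of total Ighg and Ighm in the WT area (95% Poisson interval 3.54 to 3.82), 4.46 in the Early area (4.32 to 4.60), 3.45 in Advanced 1 (3.34 to 3.57) and 2.65 in Advanced 2 (2.56 to 2.73). The Early area, lowest in Jchain by share of all UMIs, was highest by this ratio. It was also highest by this ratio for Mzb1 (1.48, against 0.646 to 0.954 on the others) and Txndc5 (0.99, against 0.406 to 0.760). The same held for Xbp1 (0.879, against 0.514 to 0.635), Creld2 (0.467, against 0.175 to 0.346), Sdc1, Prdm1 and Eaf2. Derl3 and Tnfrsf17 were highest in Advanced 1 (0.128 and 0.0167, against 0.110 and 0.0155 in the Early area). Total Ighg itself took 344 of every 10000 UMIs in the WT area, 98.1 in the Early area, 204 in Advanced 1 and 342 in Advanced 2, and Ighm 71.7, 75.9, 79.6 and 114. The Advanced mean of total Ighg was 2.79 times its Early level, against 1.04 to 2.09 times for the 10 genes, a description of 3 areas with no test.

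Tissue pieces of the same area did not carry the genes equally. Spots were joined to connected pieces of tissue, of which those with at least 20 spots were kept. On 2 areas nearly all spots formed 1 piece, so that pieces are not single nodes. The Early area had 4 pieces of 924, 313, 158 and 79 spots, in which Jchain took 10.4, 6.71, 1.73 and 2.89 of every 10000 UMIs and total Ighg 134, 72.5, 24.1 and 56.3. Mzb1 took 2.66, 2.05, 3.09 and 3.51 in the same pieces, with no fall in the pieces poor in Jchain. Advanced 2 had 2 pieces of 1517 and 249 spots, in which Jchain took 13.4 and 6.27 and Mzb1 3.17 and 2.23. Jchain thus differed more between pieces of the Early area (1.73 to 10.4) than between the means of the groups.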

How the data were processed

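The deposited matrices hold raw UMI counts of genes in spots under tissue, made by the authors with Space Ranger 1.1.0 (mm10, GRCm38) per the labels; the submitters' notes also name Seurat 4.0.3 and R 4.1.1. No normalization had been applied to these counts. Libraries were made from 10 µm sections permeabilized for 12 minutes and counted near the 3' end of transcripts.

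Counts were summed per area, region or class of spots, since spots are not replicates, and tested with edgeR 4.0.16 in R 4.3.3 (filterByExpr, TMM factors, glmQLFit, glmQLFTest), with Benjamini-Hochberg adjustment over all genes tested and a threshold of 0.05. Comparisons within areas had the area as a block, and those between groups a term for the 3 groups. Standard errors were derived from the F statistic. The 95% intervals are exact Poisson intervals, and intervals cover counting error only. Where nothing replicates an area, p-values measure only the spread between areas and between sums, and between groups that spread was pooled over genes. The fits were tested on simulated data. Alternatives were DESeq2 1.42.0, other scaling, filters, spot minimums and rim rules, and leaving out areas. Gene spans came from GENCODE (GRCm38), promoter windows from RefSeq.

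The members, lists and tests were chosen with earlier results of these data known. Named were all 10 genes, at most 4 genes per list by UMI total, and the 10 genes most alike; Pdia6 and Dnajc3 were named for their motif after it was seen. Of the capsule, epithelial, germinal centre and T cell lists only counts or sums are given, apart from Krt5 and Krt14, epithelial genes named for having 0 UMIs after that was seen. Values of single PLNs were not analysed here, since no table used here assigns spots to nodes.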

Additional observations from a re-analysis of the deposited data

How the results depend on the processing

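Over all settings tried, 5 to 8 of the identity genes were higher in IgG-high spots, Jchain, Xbp1, Derl3, Creld2 and Eaf2 in each of them. Over all genes 258 passed with classes cut at the upper tertile and 346 without the Early area, against 972. In IgM-high spots DESeq2 called 1 of the genes, Jchain, and gave Txndc5 no adjusted p, so that Txndc5 was left without a call there. No filter called 5. Over all genes 41 passed without scaling, 89 without the filter, 15 in rim spots and 79 with the upper tertile. Over leaving out each area in turn the ranges were 6 to 7 genes and 346 to 895 of all genes for IgG, and 2 genes and 16 to 24 of all genes for IgM.

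For rim minus interior, Creld2 was lost and 0 of the genes passed with DESeq2 (421 of all genes), without the filter, in spots of at least 500 UMIs (504), with no replicate block (146), and without the Early area or Advanced 2. Leaving out an area in turn gave 0 to 1 of the genes and 243 to 1156 of all. From Early to Advanced 7 of all genes passed with DESeq2, 0 without the filter (edgeR, 912 at an unadjusted p under 0.05), 20 in rim and 35 in interior spots, and 0 of the identity genes in each. From WT to Advanced 1 of the genes passed without scaling and 1 in rim spots, and 0 with DESeq2, without the filter and in interior spots, with 33 of all genes by DESeq2, 3 without the filter, 155 in rim and 47 in interior spots. For the interaction 3 of all genes passed with DESeq2 size factors, 0 with DESeq2 (5 at an unadjusted p under 0.05), 0 without the filter (343 in edgeR), and 2 with a rim of at least 3 open sides.

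Differences near 0 changed sign. At the rim Mzb1 turned to -0.062 without scaling, -0.040 with 3 open sides, -0.055 in spots of at least 500 UMIs, -0.026 with no replicate block, and -0.070 and -0.063 without the Early area and without Advanced 1 (0.16 at the most, without WT). Derl3 ranged from -0.27 to 0.046 over the areas left out and Xbp1 from -0.13 to 0.059, positive without the Early area and without Advanced 2, respectively. From Early to Advanced Creld2 turned to 0.050 without scaling and 0.032 without Advanced 2 (-0.094 without Advanced 1), Eaf2 to -0.084 in rim spots and Mzb1 to -0.018 without Advanced 2 (0.13 without Advanced 1). From WT to Advanced Txndc5 turned to 0.0065 without scaling and 0.14 in interior spots, Prdm1 to 0.060 without scaling, 0.052 in spots of at least 500 UMIs, 0.20 in interior spots and 0.22 without Advanced 1 (-0.37 without Advanced 2), Derl3 to 0.10 in interior spots and 0.032 without Advanced 2 (-0.33 without Advanced 1), and Tnfrsf17 to -0.027 without Advanced 2 (0.47 without Advanced 1). In the interaction Derl3 turned to -0.24 with 3 open sides. The cause was not tested.

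Without scaling factors the share of calls that were higher moved from 53.7% to 30.6% at the rim, from 54.5% to 35.7% for IgG, from 53.8% to 36.6% for IgM, from 44.2% to 66.4% between Early and Advanced, and from 34.5% to 54.8% between WT and Advanced. DESeq2 gave 23.7% for IgM and 57.1% between Early and Advanced. For the interaction it was 20.0% of 5 calls, against 42.9% without scaling and 33.3% with DESeq2 size factors.

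With non-immunoglobulin UMIs as the denominator the summed genes took 28.6 of every 10000 in the WT area, 15.9 in Early, 19.6 in Advanced 1 and 23.1 in Advanced 2. In spots of at least 1000 UMIs their mean correlation with total Ighg was 0.611. No paired analysis was possible between groups because replicate numbers only name the areas. Without an Advanced area those comparisons keep no residual degree of freedom and give values only. With 4 areas and WT and Early as 1 area each, small differences cannot be seen.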
